A study of Mus musculus with 2 samples.

Results

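The genes described here are the 3 TGF-β ligands (Tgfb1, Tgfb2, Tgfb3), their 3 receptors (Tgfbr1, Tgfbr2, Tgfbr3) and the 4 latent TGF-β binding proteins (Ltbp1, Ltbp2, Ltbp3, Ltbp4), which were taken by symbol and make up 10 of the 32285 features in the data. Single-cell RNA-Seq of mitral valve leaflets compared WT mice (Fbn1+/+) with mgR mice, which carry on both chromosomes a hypomorphic Fbn1 allele (mgR/mgR) that lowers the amount of normal fibrillin-1. Mice were 12 weeks old and on a C57BL/6J background, and WT mice were littermates. The allele acts in all cells from the germline on, so the comparison does not separate valve cells from recruited cells. Leaflets were digested with collagenase and elastase, viable cells were sorted, and each genotype gave 1 library, so differences below lack a replicate check and were not tested. Intervals in parentheses are exact 95% intervals and cover counting error only.

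TGF-β is secreted as an inactive complex in which the mature dimer stays wrapped in its own propeptide. The propeptide is linked to a latent TGF-β binding protein, and these large matrix proteins attach to fibrillin microfibrils, so fibrillin-1 is part of the store from which integrins and proteases release the ligand. Free ligand binds TGFBR2, which recruits and phosphorylates TGFBR1, and TGFBR1 phosphorylates SMAD2 and SMAD3; TGFBR3 (betaglycan) presents ligand and matters most for TGF-β2. In the mitral valve the pathway is known for the formation of the cushions in the embryo and for myxomatous degeneration in Marfan syndrome.

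All 10 genes are protein coding and had a position in the GENCODE annotation of GRCm38. The ligands lie at chr7:25687002-25705077 (Tgfb1, plus strand), chr1:186622792-186705989 (Tgfb2, minus) and chr12:86056745-86079041 (Tgfb3, minus). The receptors lie at chr4:47353222-47414931 (Tgfbr1, plus), chr9:116084293-116175360 (Tgfbr2, minus) and chr5:107106570-107289629 (Tgfbr3, minus). The binding proteins lie at chr17:75005568-75392512 (Ltbp1, plus), chr12:84783212-84876532 (Ltbp2, minus), chr19:5740904-5758532 (Ltbp3, plus) and chr7:27305136-27337692 (Ltbp4, minus). On the opposite strand, the protein-coding gene Ttll5 overlaps Tgfb3; whether the counting used strand was not given in the sources used here.

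RefSeq (GRCm38.p6) gave 12 promoters for 8 of the 10 genes, each from 250 bases before to 50 bases after a start site, and none for Tgfb3 and Tgfbr3. Shown here are Tgfb1, which was detected in every cell class, Tgfb2 and Ltbp1, whose levels followed each other across cell types, and Ltbp2, whose level split cells within a class. Capitals mark matches, on either strand, to any of 4 motifs. The first was the GC box, spelled GGGCGG, which 35.7% of all 32851 promoters of this length held. The TATA box, spelled TATAAA, was held by 13.6% of those promoters. The core of the box bound by SMAD proteins, spelled CAGACA, was found in 21% of that background set. The AP-1 site, spelled TGACTCA, was the rarest of the motifs searched for, at 5.2%. The Tgfb1 promoter (chr7:25686752-25687051, plus strand, 77% G and C) held 6 GC-box matches, 1 on the strand shown and 5 on the other. The Tgfb2 promoter (chr1:186705940-186706239, minus strand) held 1 TATA-box match and 1 CAGA match. The Ltbp1 promoter at its first start site (chr17:75005279-75005578, plus strand) held 0 matches. At its second start site (chr17:75178531-75178830, plus strand, sequence not shown) Ltbp1 held 2 CAGA matches on the other strand. The Ltbp2 promoter (chr12:84876442-84876741, minus strand) held 1 GC-box match on each strand. A match describes the letters and not the binding of a factor.
Tgfb1: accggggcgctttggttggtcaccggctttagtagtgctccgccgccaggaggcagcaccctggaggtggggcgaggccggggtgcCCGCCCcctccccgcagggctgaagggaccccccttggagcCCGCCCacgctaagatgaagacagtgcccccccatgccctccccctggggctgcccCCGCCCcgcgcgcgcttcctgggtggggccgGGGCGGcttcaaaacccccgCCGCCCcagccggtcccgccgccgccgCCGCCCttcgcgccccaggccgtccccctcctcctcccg
Tgfb2: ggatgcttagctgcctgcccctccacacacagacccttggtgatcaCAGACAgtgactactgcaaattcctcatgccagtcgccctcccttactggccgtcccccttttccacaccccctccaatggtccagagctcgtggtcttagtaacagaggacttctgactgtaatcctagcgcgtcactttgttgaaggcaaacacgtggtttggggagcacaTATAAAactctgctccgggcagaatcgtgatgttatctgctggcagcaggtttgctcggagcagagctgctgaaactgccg
Ltbp1: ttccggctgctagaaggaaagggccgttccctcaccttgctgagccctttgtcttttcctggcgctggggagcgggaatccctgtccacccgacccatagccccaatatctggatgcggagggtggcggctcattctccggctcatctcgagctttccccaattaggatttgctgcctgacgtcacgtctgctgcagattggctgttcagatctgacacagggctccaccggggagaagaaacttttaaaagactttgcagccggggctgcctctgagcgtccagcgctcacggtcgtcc
Ltbp2: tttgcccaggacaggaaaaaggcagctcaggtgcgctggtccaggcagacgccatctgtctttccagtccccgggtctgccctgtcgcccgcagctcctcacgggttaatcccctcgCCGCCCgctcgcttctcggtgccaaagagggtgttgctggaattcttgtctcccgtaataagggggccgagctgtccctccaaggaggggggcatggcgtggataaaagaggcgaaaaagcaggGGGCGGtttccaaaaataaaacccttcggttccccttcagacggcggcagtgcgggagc

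The WT library held 1104 barcodes and 5381844 unique molecular identifiers (UMIs, which tag single captured RNA molecules), and the mgR library held 3802 and 28215539. With 200 to 5000 genes and at most 10% mitochondrial UMIs, 875 WT cells (median 5033 UMIs) and 3438 mgR cells (median 7370) were kept, and of the 2 barcode sequences found in both libraries 0 were among them. The methods of the study name male mice alone. In the data, 28.1% of WT cells and 60.8% of mgR cells held UMIs of Xist and of no Y-linked gene (Xist-only cells), against 38.5% and 21.1% that held Y-linked UMIs without Xist (Y-only cells). The mix of these cells therefore differed between the libraries, and results are also given within each kind of cell where they moved. The labels give no number of animals per library; an n of 3 is stated for the experiment without saying what it counts or how animals were pooled.

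Cells were classed by summed UMIs of markers: fibroblasts by Col1a2, Col3a1 and Dcn (at least 10), macrophages by C1qa, C1qb and C1qc (at least 10), endothelium by Pecam1 and Cdh5 (at least 2) and T cells by Cd3e, Cd3d and Cd3g (at least 2). The WT and mgR libraries held 322 and 877 fibroblasts, 224 and 1531 macrophages, 29 and 147 endothelial cells, and 90 and 148 T cells. In every class 5 of 5 further markers were highest in that class in both libraries, though Vwf rested on 1 UMI in the 29 WT endothelial cells. Cells that met more than 1 rule, 33 in WT (3.77%) and 361 in mgR (10.5%), were set aside. Most of these, 28 and 301, met the fibroblast and the endothelium rule together. Cells near a cutoff were counted as just inside it (sums at or somewhat above it) or just outside it (sums somewhat below it). At the fibroblast cutoff, 7 WT and 14 mgR cells lay just inside and 9 and 19 just outside. At the endothelium cutoff, 7 and 19 cells of the 29 and 147 lay just inside and 21 and 34 just outside. Many cells of that class thus lay near the cutoff. Macrophages had 3 and 15 just inside and 14 and 19 just outside, and T cells 3 and 1 against 4 and 4. Levels are UMIs of a gene per 1000000 UMIs of the class (CPM). UMIs tag captured RNA molecules, so no length correction was applied, and levels are not ranked between genes.

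Fbn1, the targeted gene, was expressed in fibroblasts at 171 CPM in WT and 136 CPM in mgR (289 and 839 UMIs), a ratio of 0.795 (0.694–0.912). The mgR level was the lower in both kinds of cell, with 0.664 (0.534–0.833) in Xist-only cells and 0.851 (0.676–1.07) in Y-only cells. The mgR allele leaves the coding sequence whole, and counts per gene do not read the insertion itself. The paper describes Fbn1 mRNA as severely reduced in mgR mice and reports less of it by RT-PCR in cultured dermal fibroblasts. The ratio counted here is milder than that wording, and the gap was not tested. Endothelium held 4 and 38 Fbn1 UMIs, and macrophages held 1 in each library.

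The ligands divided by cell class. Tgfb1, the ligand of broadest expression, was highest in macrophages, at 296 CPM in WT (268–325) and 252 CPM in mgR (244–261). T cells followed in WT at 202 CPM, below macrophages by a ratio of 1.47 (1.15–1.88), and endothelium and fibroblasts held 162 and 84.1 CPM. In mgR the order was macrophages, endothelium (221 CPM), T cells (186 CPM) and fibroblasts (55.9 CPM), and neighbours among the first 3 were not separated by counting error. T cells stood above fibroblasts there by 3.33-fold (2.75–4.03). Macrophages held 49.2% of all Tgfb1 UMIs in WT and 65.4% in mgR. Among cells that met none of the rules, dendritic-like cells held 206 and 198 CPM of Tgfb1 (46 and 166 cells), and 32 monocyte-like mgR cells held 431 CPM (350–525).

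Tgfb2, the ligand best known from the embryonic cushion, was a gene of fibroblasts and endothelium. Fibroblasts held 71.1 CPM in WT and 57.5 CPM in mgR, and endothelium held 59.5 and 70.7 CPM. The classes did not differ beyond counting error, with 1.19 (0.562–3.03) for fibroblasts over endothelium in WT and 1.23 (0.918–1.62) for endothelium over fibroblasts in mgR. T cells held 0 Tgfb2 UMIs in either library, which allows up to 7.47 CPM in WT and 3.52 CPM in mgR. Macrophages held 1 UMI in WT and 21 in mgR, of which 13 came from 1 cell.

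Tgfb3, the ligand that shares receptors with Tgfb1 and is made by many mesenchymal cells, was largely confined to fibroblasts in both libraries, which held 83.8% of its UMIs in WT and 81.6% in mgR. Its fibroblast level was 55.1 CPM in WT (44.4–67.5) and 54.0 CPM in mgR (48.3–60.1). It stood 7.37-fold (2.45–36.4) above the next class in WT, T cells with 3 UMIs. In mgR it stood 5.09-fold (2.65–11.2) above endothelium, which held 9 UMIs.

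**Figure D1:**
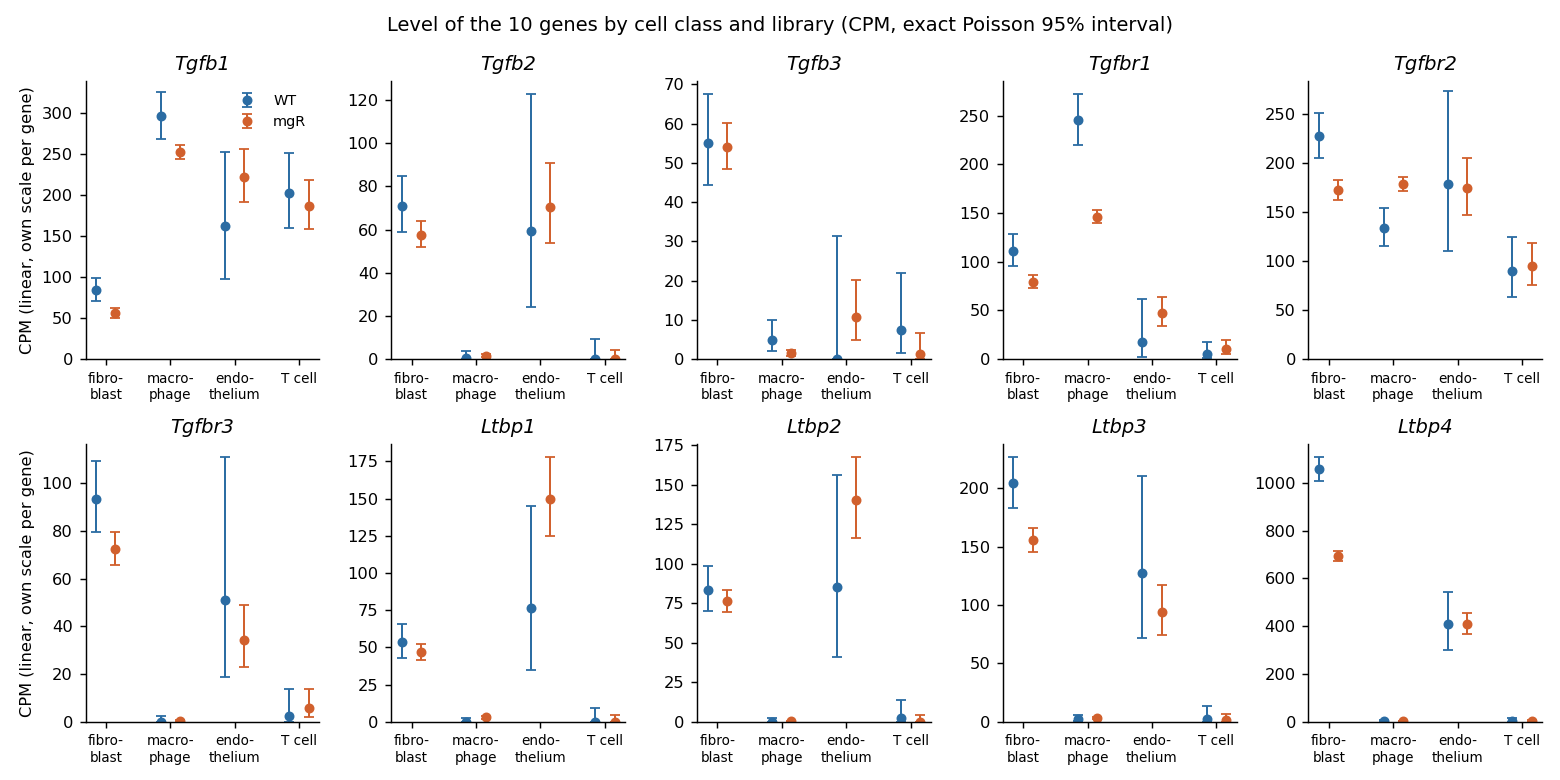
Level of each gene in CPM (linear axis, own scale per gene, starting at 0) in fibroblasts, macrophages, endothelium and T cells of the WT (blue) and mgR (orange) library; bars are exact Poisson 95% intervals. Tgfb1 and Tgfbr1 peaked in macrophages, whereas Ltbp3, Ltbp4, Tgfb3 and Tgfbr3 peaked in fibroblasts of both libraries, and the WT endothelium, with 29 cells, has the widest intervals.

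The receptors differed from each other in the classes that held them. Tgfbr1, the signalling kinase of the complex, was highest in macrophages at 245 CPM in WT (220–272) and 146 CPM in mgR (140–153). Fibroblasts followed at 111 and 79.4 CPM, so macrophages were 2.20-fold (1.84–2.64) higher in WT and 1.84-fold (1.66–2.03) higher in mgR. Endothelium and T cells held little of it, with 2 and 2 UMIs in WT and 40 and 9 in mgR.

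Tgfbr2, the receptor that binds ligand first, was found in all 4 classes. In WT it was 227 CPM in fibroblasts (205–251), 179 CPM in endothelium, 134 CPM in macrophages (115–154) and 89.6 CPM in T cells. Counting error did not separate WT fibroblasts from endothelium (1.27, 0.821–2.08) or endothelium from macrophages (1.34, 0.809–2.10). The intervals of WT fibroblasts and macrophages did not overlap. In mgR macrophages (179 CPM), endothelium (174 CPM) and fibroblasts (172 CPM) were level within counting error, and fibroblasts stood 1.81-fold (1.45–2.30) above T cells (95 CPM). The share of Tgfbr2 UMIs held by fibroblasts was 54.4% in WT and 24.9% in mgR, and that held by macrophages was 27.3% and 55.7%, while macrophages made up 25.6% and 44.5% of the cells.

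Tgfbr3, the co-receptor betaglycan, was highest in fibroblasts at 93.6 CPM in WT and 72.5 CPM in mgR. Endothelium held 51.0 and 34.2 CPM, a fibroblast excess of 1.83 (0.824–5.07) in WT and 2.12 (1.46–3.21) in mgR. Macrophages held 0 UMIs in WT and 4 in mgR among 1531 cells.

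The latent binding proteins were genes of fibroblasts and endothelium, and leukocytes held almost none of them. Ltbp4, which binds TGF-β1 and is needed for elastic fibre assembly, reached 1058 CPM in WT fibroblasts (1010–1108) and 695 CPM in mgR fibroblasts (674–716). Endothelium held 408 and 411 CPM, so fibroblasts were 2.59-fold (1.95–3.53) higher in WT and 1.69-fold (1.52–1.89) higher in mgR. Ltbp3, which carries latent TGF-β in bone and other tissues, was 204 and 156 CPM in fibroblasts against 128 and 94.2 CPM in endothelium, a ratio of 1.60 (0.957–2.89) in WT and 1.65 (1.31–2.10) in mgR.

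Ltbp1, the founding member of the family and a carrier of all 3 latent ligands, ran the other way. Endothelium held 76.5 CPM in WT and 150 CPM in mgR, against 53.3 and 46.7 CPM in fibroblasts. The endothelial excess was 1.44 (0.636–2.85) in WT, within counting error, and 3.20 (2.58–3.96) in mgR. Ltbp2, which binds fibrillin-1 but not latent TGF-β, was nearly equal in the WT classes (85.0 CPM in endothelium, 83.5 CPM in fibroblasts). In mgR it was 140 and 76.5 CPM, an endothelial excess of 1.83 (1.49–2.24). That order for Ltbp2 turned when cells that met more than 1 rule were kept or when all marker cutoffs were lowered by the same factor (log2 of the ratio -0.07 and -0.08).

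Macrophages held few UMIs of the genes of fibroblasts and endothelium, and the part of free RNA in these was not tested. When each cell was thinned to 2000 UMIs, 0 to 1.83% of WT macrophages and 0.0664 to 0.664% of mgR macrophages held a UMI of Tgfb2, Tgfbr3 or an Ltbp gene. In fibroblasts thinned in the same way, 81.5% of WT cells and 69.4% of mgR cells held Ltbp4 (95% and 91.8% before thinning), and 37.7% and 28.0% held Ltbp3. Tgfbr2 was found in 38.4% and 27.4% of fibroblasts and 26.6% and 28.5% of macrophages. Tgfb1 was found in 42.2% and 38.9% of macrophages and in 15.4% and 8.89% of fibroblasts. At least 1 of the 10 genes was seen in 95.5% of thinned WT fibroblasts and 91.7% of mgR fibroblasts, and in 74.3% and 67.2% of macrophages. Thinning left out 30 WT and 33 mgR fibroblasts and 6 and 24 macrophages that held fewer UMIs.

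**Figure D2:**
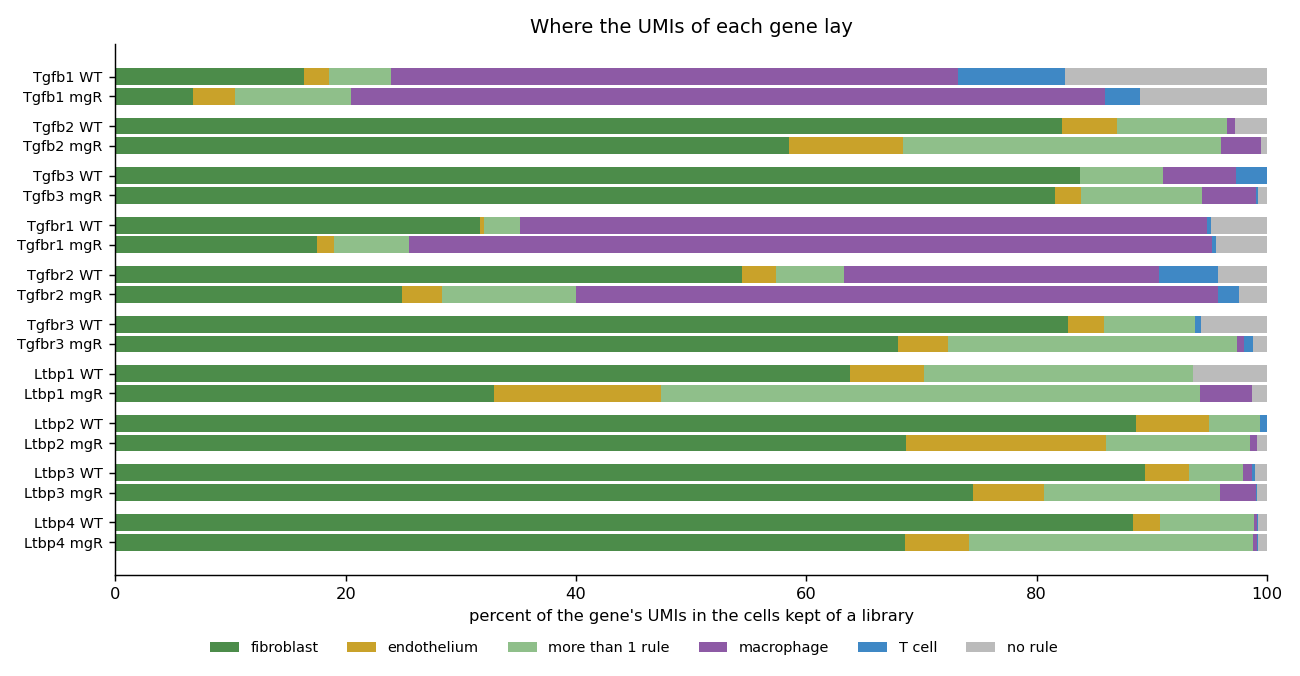
Percent of each gene's UMIs (horizontal axis) found in each class of cells kept, per library; cells that met more than 1 rule are a class of their own. Fibroblasts held 88.3% of Ltbp4 UMIs in WT and 68.6% in mgR, macrophages held 59.6% and 69.7% of Tgfbr1, and cells that met more than 1 rule held 23.4% and 46.7% of Ltbp1.

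The mgR and WT libraries were next compared within each class. A gene was counted as past the fold when its CPM differed by at least 1.5-fold and its class held at least 20 of its UMIs over both libraries. In fibroblasts 2 of 10 genes passed, both lower in mgR, where 19.9% of 11364 genes passed in either direction, 9.8% higher and 10.1% lower. The share of the 10 genes that passed is thus close to that of all genes. The median log2 ratio of the 10 was -0.38, against -0.05 over all genes. The part of fewer transcripts per cell and of a different mix of fibroblasts in these values was not tested, and ratios within fibroblast groups are given below.

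Both genes that passed are a ligand and a carrier. Tgfb1 was 84.1 CPM in WT fibroblasts and 55.9 CPM in mgR fibroblasts (142 and 345 UMIs), a ratio of 0.665 (0.545–0.814). Ltbp4 was 1058 and 695 CPM (1787 and 4287 UMIs), a ratio of 0.657 (0.621–0.694). Both ratios lie at the edge of the fold, and 0 of 10 genes passed when the scale was set by the median gene. The Ltbp4 ratio was 0.642 (0.583–0.709) in Xist-only cells and 0.711 (0.649–0.778) in Y-only cells. That of Tgfb1 was 0.978 (0.664–1.49) and 0.518 (0.369–0.728), and it was -0.09 on the log2 scale when cells that met more than 1 rule were kept.

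The 3 receptors were lower in mgR fibroblasts without passing the fold. Tgfbr1 had a ratio of 0.713 (0.602–0.849), Tgfbr2 of 0.758 (0.674–0.854) and Tgfbr3 of 0.774 (0.645–0.934). Ltbp3 was alike at 0.762 (0.673–0.864). By kind of cell, with the difference not tested, the ratios for Tgfbr1 were 1.06 (0.744–1.55) in Xist-only cells and 0.550 (0.414–0.730) in Y-only cells, for Tgfbr2 0.905 (0.724–1.14) and 0.645 (0.533–0.781), for Tgfbr3 0.890 (0.627–1.30) and 0.793 (0.588–1.08), and for Ltbp3 0.874 (0.697–1.11) and 0.633 (0.515–0.777). For Tgfbr2, Tgfbr3 and Ltbp3 the intervals of both kinds of cell overlapped.

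The remaining fibroblast genes had intervals that included 1. Tgfb3 showed the smallest difference of the 10, at 0.98 (0.777–1.25). Ltbp2 was at 0.916 (0.758–1.11), Ltbp1 at 0.876 (0.689–1.12) and Tgfb2 at 0.810 (0.657–1). The sign for Tgfb3 turned on the median-gene scale and when cells were thinned, and that for Ltbp1 when cells were thinned or when cells that met more than 1 rule were kept, so no direction is given for either.

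**Figure D3:**
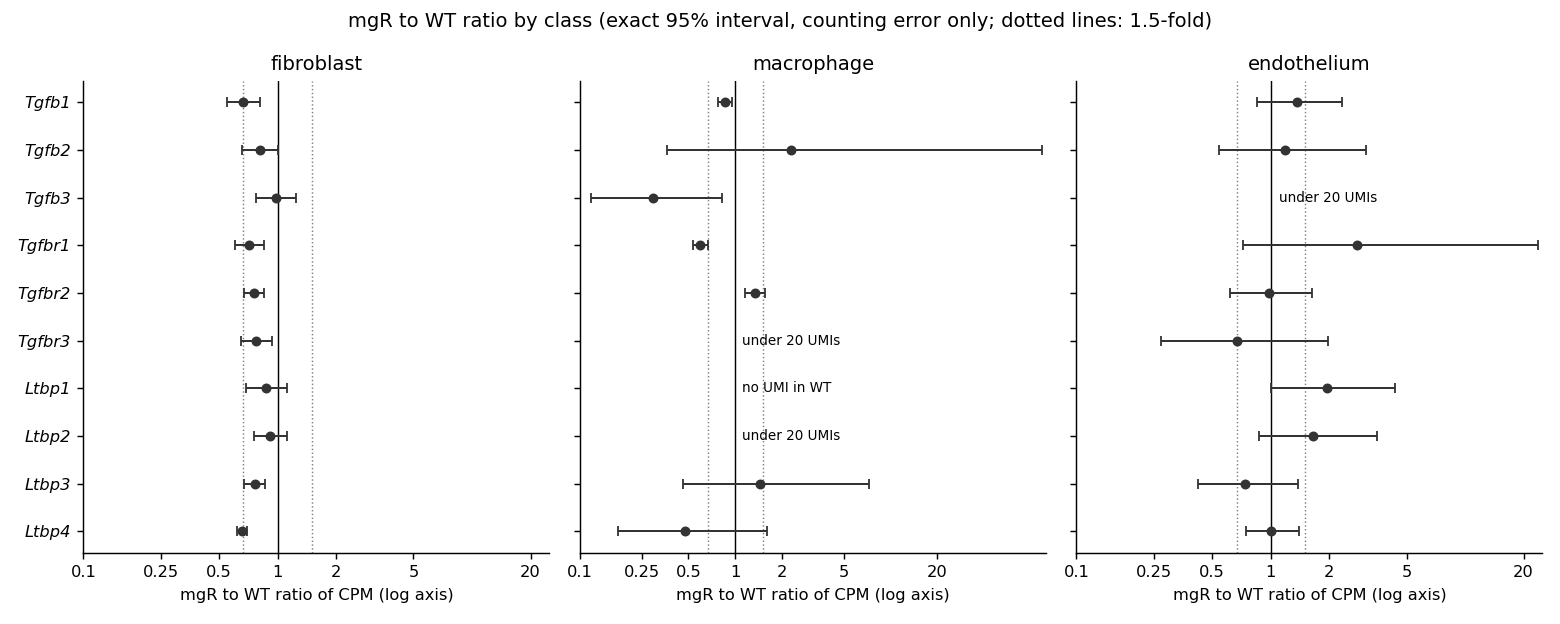
Ratio of mgR to WT CPM (log axis) of each gene in fibroblasts, macrophages and endothelium, with exact 95% intervals for counting error; dotted lines mark 1.5-fold. In fibroblasts Tgfb1 and Ltbp4 lie at the lower edge of the fold, in macrophages Tgfbr1 lies below and Tgfbr2 above 1, and the endothelial intervals all include 1.

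In macrophages 8 of 10 genes held enough UMIs and 5 passed the fold, 2 higher and 3 lower in mgR, where 27% of 10869 genes passed, 18.7% higher and 8.3% lower. Of these 5 genes, 4 held 40 or fewer UMIs in either library. Tgfbr1 alone was well covered: 245 CPM in WT and 146 CPM in mgR (354 and 1947 UMIs), a ratio of 0.596 (0.532–0.669). It was lower in both kinds of cell, with ratios of 0.546 (0.454–0.662) in Xist-only cells and 0.586 (0.486–0.710) in Y-only cells.

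Tgfbr2 was the receptor that was higher in mgR macrophages, at 179 CPM against 134 CPM (2381 and 193 UMIs), a ratio of 1.34 (1.15–1.56). Over all macrophage genes with at least 100 UMIs the median log2 ratio was 0.13. Relative to that median gene, the log2 ratio of Tgfbr2 was 0.29, that of Tgfbr1 was -0.88 and that of Tgfb1 was -0.36. By kind of cell the Tgfbr2 ratio was 1.40 (1.08–1.83) in Xist-only cells and 1.23 (0.977–1.56) in Y-only cells. Tgfb1 itself, the macrophage ligand, was slightly lower in mgR, at 0.854 (0.772–0.947).

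Genes with few macrophage UMIs need each count beside them. Tgfb3 had 7 UMIs in WT and 19 in mgR, a ratio of 0.294 (0.118–0.828), and its share of thinned cells was 0.459% and 0.199%, within the range of the low genes above. Ltbp1 had 0 and 40, and 95% of the 40 came from 10 cells. Ltbp3 had 3 and 40, Ltbp4 5 and 22, and Tgfb2 1 and 21, with intervals that all included 1.

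In endothelium 9 of 10 genes held enough UMIs and 3 passed the fold, all higher in mgR, where 39.1% of 6228 genes passed and 21.5% were higher. They were Ltbp1 (9 and 127 UMIs), with a ratio of 1.95 (0.997–4.37), Ltbp2 (10 and 119 UMIs), with 1.65 (0.865–3.52), and Tgfbr1 (2 and 40 UMIs), with 2.77 (0.718–23.7). None of the intervals excluded 1. The WT class held 29 cells. When the cells that also met the fibroblast rule were added, a choice made after seeing the data, endothelium held 57 and 448 cells and 0 of 10 genes passed: Ltbp1 had 1.20 (0.873–1.68), Ltbp2 1.1 (0.669–1.93) and Tgfbr1 0.871 (0.510–1.60). The added cells held markers of both classes, with 514 and 699 CPM of the endothelial gene Egfl7 and 626 and 464 CPM of the fibroblast gene Lum, and whether they are doublets or cells of mixed expression was not tested.

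T cells gave 2 genes with enough UMIs, of which 0 passed (26.9% of 5970 genes did). Tgfb1 was 202 and 186 CPM, a ratio of 0.924 (0.703–1.22), and Tgfbr2 was 89.6 and 95 CPM, a ratio of 1.06 (0.707–1.62). The other genes held at most 9 UMIs in either library.

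Summed over all cells kept, the mix of classes entered the values. Ltbp4 was 442 CPM in WT and 234 CPM in mgR (0.530, 0.504–0.558), and Ltbp3 84.3 and 48.3 CPM (0.573, 0.511–0.644). Fibroblasts made up 36.8% of WT cells and 25.5% of mgR cells. Tgfb1 (1.02, 0.946–1.09) and Tgfbr2 (1.04, 0.959–1.13), which macrophages and other classes share, had intervals that included 1, whereas Tgfbr1, with the largest macrophage share, was at 0.807 (0.738–0.883).

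Fibroblasts were divided by marker sums into a group with Fmod, Prg4 and Scx, genes of tendon-like and fibrous matrix (114 WT and 373 mgR cells), and a group with Ptx3, Igfbp3 and Smoc2 (104 and 275 cells), with 104 and 229 cells in neither. The binding proteins split along this line. Ltbp2 was 141 CPM in the first and 42.0 CPM in the second group in WT, and 122 and 32.2 CPM in mgR, ratios of 3.36 (2.13–5.49) and 3.80 (2.91–5.02). Ltbp1 was the reverse, with 20.8 and 76.9 CPM in WT and 23.3 and 56.5 CPM in mgR, so the first group held 0.270 (0.137–0.502) and 0.412 (0.300–0.562) of the level of the second.

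Ligands differed between the same groups. Tgfb2 followed Ltbp1: the first group held 0.462 (0.286–0.734) of the level of the second in WT and 0.735 (0.574–0.942) in mgR. Tgfb3 was higher in the Fmod group, by 1.63 (0.996–2.73) and 1.66 (1.27–2.17). Tgfbr1 (1.51, 1.21–1.88) and Ltbp4 (0.735, 0.687–0.788) differed between the groups in mgR, where in WT the ratios were 1.1 (0.768–1.57) and 0.917 (0.823–1.02).

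Within the fibroblast groups the mgR to WT ratio of Ltbp4 was 0.561 (0.513–0.614) in the Fmod group, 0.699 (0.638–0.767) in the Ptx3 group and 0.793 (0.707–0.891) in cells of neither. The lower level was thus present in all 3. Tgfbr2 was 0.637 (0.529–0.770) in the Fmod group and 0.836 (0.683–1.03) in the Ptx3 group, and Tgfbr1 was 0.819 (0.631–1.07) and 0.596 (0.433–0.829). In cells of neither, Tgfbr2 was 0.899 (0.710–1.15) and Tgfbr1 0.676 (0.484–0.953).

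Macrophages were divided into a Lyve1, Folr2 and Cd163 group, markers of resident macrophages (78 WT and 937 mgR cells, 34.8% and 61.2% of the class), and a Cx3cr1 and Cd72 group (72 and 306 cells, 32.1% and 20%). Tgfbr1 was far higher in the second group, at 363 CPM against 118 CPM in WT and 239 CPM against 104 CPM in mgR. The first group held 0.325 (0.240–0.436) and 0.437 (0.395–0.484) of the level of the second. Tgfbr2 was the reverse, with 182 and 124 CPM in WT (1.46, 1.06–2.04) and 206 and 151 CPM in mgR (1.36, 1.22–1.51). The receptors that make up 1 signalling complex were thus weighted towards different macrophages in both libraries.

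The groups also differed in size between the libraries, and the macrophage ratios of both receptors were closer to 1 within them. For Tgfbr1 the mgR to WT ratio was 0.885 (0.682–1.17) in the Lyve1 group, 0.658 (0.560–0.777) in the Cx3cr1 group and 0.729 (0.585–0.915) in cells of neither, against 0.596 over the class. For Tgfbr2 it was 1.13 (0.919–1.41), 1.22 (0.939–1.61) and 1.25 (0.866–1.85), and each interval included 1. For Tgfb1 the mgR to WT ratio was 0.794 (0.679–0.935) in the Lyve1 group, 0.793 (0.667–0.948) in the Cx3cr1 group and 0.978 (0.786–1.23) in neither, against 0.854 over the class. Its Lyve1 to Cx3cr1 group ratio was 1.08 (0.862–1.35) in WT and 1.08 (0.990–1.18) in mgR. Of the 40 Ltbp1 UMIs in mgR macrophages, 35 lay in cells of neither group.

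Endothelium, with the cells that also met the fibroblast rule, was divided into a Prox1, Vwf and Emcn group (18 and 251 cells) and a Wnt9b, Nts and Dkk2 group (16 and 118 cells). Ltbp2 marked the second group: 0 against 11 UMIs in WT and 11 against 164 in mgR, or 7.30 against 185 CPM, so the Prox1 group held 0.0395 (0.0194–0.0726) of that level. Ltbp1 ran the other way, with 265 against 36.1 CPM in WT (7.34, 2.27–37.7) and 242 against 114 CPM in mgR (2.13, 1.70–2.68). Ltbp4 followed Ltbp1, at 2.17 (1.44–3.34) and 1.89 (1.68–2.14), and Tgfbr3 was 2.53 (1.69–3.91) in mgR. The median sum of fibroblast markers also differed between the groups, at 18.5 against 3.5 in WT and 28 against 6 in mgR. Its part in these ratios was not tested. In cells that met the endothelium rule alone, the Prox1 group held 0 Ltbp2 UMIs in either library and the Wnt9b group 9 and 117. There the Ltbp4 ratio was 1.18 (0.565–2.40) in WT and 1.54 (1.22–1.94) in mgR. Ltbp1 had 3 and 2 UMIs in WT and a ratio of 4.33 (2.87–6.67) in mgR. Tgfbr3 had 1 and 4 UMIs in WT and a ratio of 2.48 (1.06–5.97) in mgR.

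**Figure D4:**
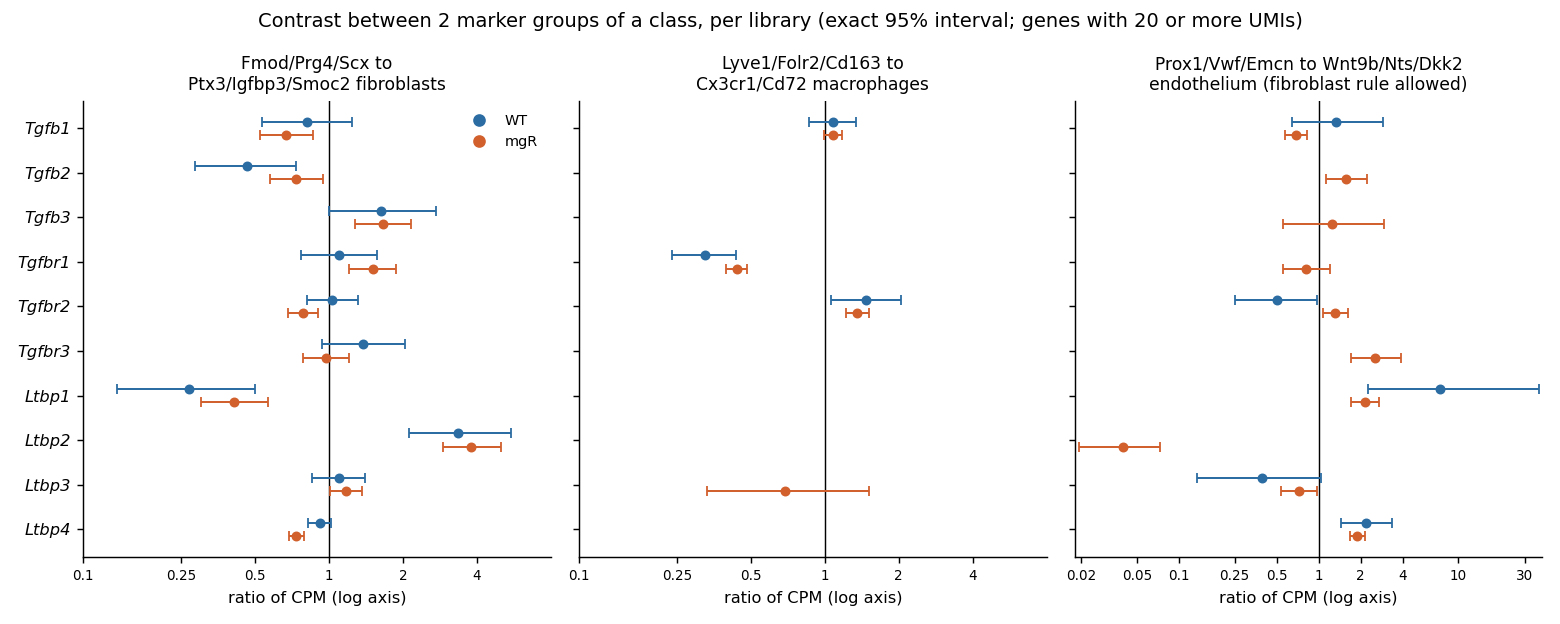
Ratio of CPM between the groups of a class (log axis), for WT (blue) and mgR (orange), with exact 95% intervals; genes with at least 20 UMIs in the contrast are drawn. Ltbp1 and Ltbp2 lie on opposite sides of 1 in fibroblasts (0.270 and 3.36 in WT) and in mgR endothelium (2.13 and 0.0395), and Tgfbr1 and Tgfbr2 do so in macrophages (0.325 and 1.46 in WT).

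Ltbp2 in fibroblasts hid a split by kind of cell. In Xist-only cells it was 21.6 CPM in WT and 86.0 CPM in mgR (10 and 337 UMIs; 81 and 522 cells), a ratio of 3.98 (2.14–8.38). In Y-only cells it was 99.9 and 47.9 CPM (80 and 69 UMIs; 144 and 211 cells), a ratio of 0.479 (0.342–0.669). The ratios point in opposite ways around a pooled value of 0.916, and the difference between them was not tested. Within the Fmod group alone they were 2.97 (1.42–7.46) and 0.398 (0.248–0.633). The share of fibroblasts in the Fmod group was 29.6% in WT and 46.6% in mgR among Xist-only cells, and 33.3% and 37.9% among Y-only cells. In WT 47.5% of the Ltbp2 UMIs of the class came from 10 cells. Cells are not assigned to animals in the data, so the sex and the animal cannot be told apart.

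**Figure D5:**
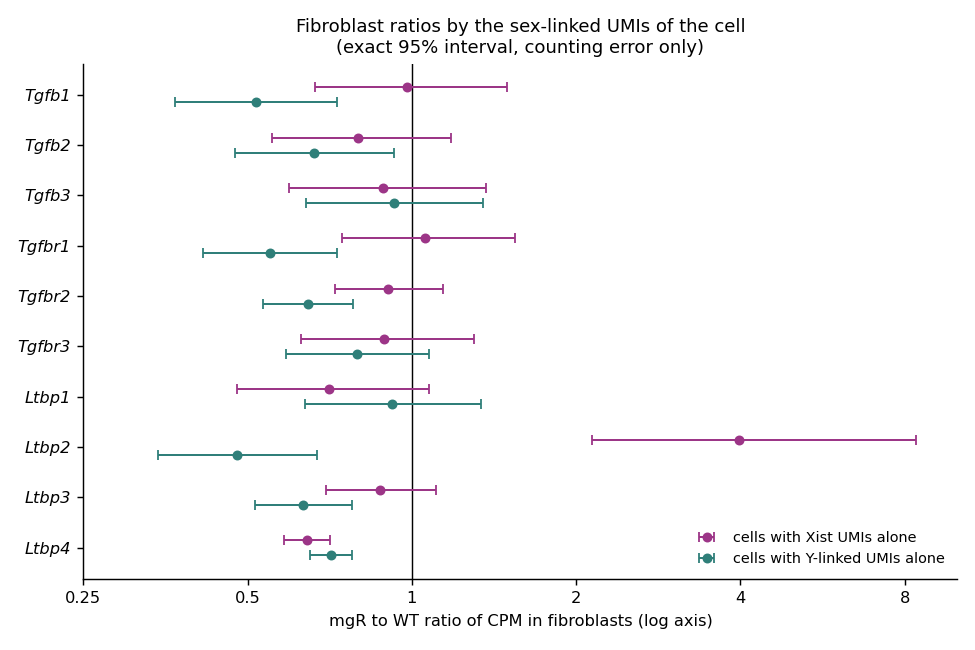
Ratio of mgR to WT CPM in fibroblasts (log axis) for Xist-only cells (purple) and Y-only cells (green), with exact 95% intervals for counting error. Ltbp2 lies at 3.98 and 0.479, on either side of 1, whereas Ltbp4 lies below 1 in both, at 0.642 and 0.711.

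The other genes of the pathway came from a list of 44. In fibroblasts 41 held enough UMIs, 3 were past the fold and higher in mgR, 5 were past it and lower, and the median log2 ratio was -0.08 against -0.05 over all genes. Of all 11364 genes 19.9% passed, 9.8% higher and 10.1% lower, so 8 of 41 lies close to the share of all genes. The listed genes past the fold, all but Bambi, belong to the extracellular genes of the list. Higher in mgR were Aspn (asporin, a small proteoglycan that binds TGF-β), from 56.3 to 150 CPM (2.67, 2.16–3.33), Fn1 (fibronectin, 2.03, 1.58–2.65) and Fmod (fibromodulin, 1.95, 1.68–2.27), which also marks a fibroblast group above. Lower were Lrrc32 (GARP, which tethers latent TGF-β to the cell surface, 0.561, 0.411–0.772), Mmp14 (a membrane protease that frees the ligand, 0.594, 0.497–0.713), Thbs1 (thrombospondin, an activator, 0.653, 0.613–0.695) and Bambi (a decoy receptor, 0.621, 0.536–0.720). Fbn2 (fibrillin-2) made up the count on 9 and 15 UMIs, with 0.456 as its ratio, and it and Thbs1 lie outside the limit for named genes and were chosen after their values were seen.

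Among fibroblast genes that act inside the cell, 0 of 8 SMAD proteins and repressors and 0 of 9 target genes were past the fold. Smad7, the feedback inhibitor, was 1.01 (0.898–1.14), and Skil, a repressor, 0.95 (0.842–1.07). The target genes of most UMIs were Pmepa1 (0.975, 0.926–1.03) and Col1a1 (0.868, 0.822–0.918).

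In macrophages 31 genes of the list held enough UMIs, 4 were higher and 3 lower past the fold. Of all 10869 genes 27% passed, 18.7% higher and 8.3% lower. Fn1 was 9 CPM in WT and 84.3 CPM in mgR (13 and 1124 UMIs), a ratio of 9.37 (5.45–17.6). The repressor genes of most UMIs were lower without passing, with 0.680 (0.612–0.757) for Tgif1 and 0.778 (0.721–0.840) for Skil. Nrros, which anchors latent TGF-β on macrophages, was 1.12 (0.964–1.32).

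In endothelium 31 genes held enough UMIs, 6 higher and 6 lower past the fold, and in T cells 15 did, 1 higher and 4 lower. Both counts lie near the shares of all genes past the fold, 39.1% in endothelium and 26.9% in T cells. Among them, endothelial Bgn (biglycan) had a ratio of 3.67 (1.39–13.7), Skil 0.564 (0.399–0.814) and Postn (periostin) 0.582 (0.442–0.777). Skil was also past the fold in T cells, at 0.597 (0.454–0.787). Eng (endoglin), a co-receptor of the vessel wall, was 561 and 705 CPM in endothelium (1.26, 0.973–1.65).

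Genes whose levels followed those of the 10 were sought over 14 profiles, each a cell type in 1 library with at least 20 cells. Pearson's r of log2(CPM + 1) was computed against 8996 genes and is a description: the profiles share libraries and differ in depth, so genes at or near 0 in leukocytes correlate highly. Tgfb2 and Ltbp1 followed each other with r = 0.989. Tgfb2 was most like Pdgfrl, Tmem100 and Gata6 (each 0.994), and Ltbp1 was most like Tmem204 (0.991), Fst (0.987), the gene of follistatin, and Sema3c (0.984). Ltbp2 was most like Eln (0.996), the gene of elastin, followed by Ntn1 (0.987) and Gata4 (0.986).

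Ltbp3 and Ltbp4 followed each other with r = 0.963, and the genes most like them were Npdc1, Cald1 and Bmp1 (0.988 to 0.983) and Plpp3, Osmr and Fstl1 (0.973 to 0.972). Tgfbr3 was most like Rcn1 (0.977) and had r = 0.921 with Ltbp4. Tgfb3 was most like Tcf7l1 (0.918), Comp (0.901) and Angptl4 (0.898). The genes with large leukocyte levels had looser neighbours: Tgfbr1 with Sec14l1 (0.914), Zeb2 (0.891) and Bri3 (0.866), Tgfbr2 with Dnajb1 (0.931), and Tgfb1 with Cmpk1 (0.896). The highest r of Tgfbr1 with any other of the 10 genes was 0.234, with Tgfb3.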

How the data were processed

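Mitral valve leaflet cells of 1 WT and 1 mgR library were sequenced by 10x single-cell RNA-Seq. The authors deposited filtered matrices of raw UMI counts per gene and barcode, with lists of features and barcodes; the submitters' processing notes name Cell Ranger 7.1.0 and mm10. The paper's filters of 200 to 5000 genes and at most 10% mitochondrial UMIs were applied here. Counts were then summed over the cells of a class in each library, and CPM was computed here from the deposited counts with the class total as denominator. Intervals were 95% exact Poisson intervals for CPM, exact conditional binomial intervals for ratios and Clopper-Pearson intervals for shares; they cover counting error only. A count of 0 was read as allowing up to 3 counts. Depth was 4577647 UMIs in the WT cells kept and 26678452 in mgR.

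No test was run, since each genotype had a single library. Shares of cells were compared after thinning to 2000 UMIs. Cells that met more than 1 class rule were set aside; Scrublet marked 7 WT and 51 mgR cells, which were left in. A cell joined a group within its class by its marker sums. Gene positions came from the GENCODE annotation of GRCm38, matched by gene ID for 32158 of 32285 features, and promoters from RefSeq. The 10 genes, the marker sets and the pathway list were chosen with earlier results of these data known. Of the pathway list, the genes named were those with at least 100 UMIs in the class and past 1.5-fold (at most 6 per class) and the 2 of most UMIs per group. Of the genes most alike, the 3 with the highest r were named. Python 3.11.15, NumPy 2.4.6, SciPy 1.17.1, pandas 2.3.3, scanpy 1.11.5 and matplotlib 3.10.9 were used, and the computation was checked on simulated data. Alternatives changed the cutoffs, the cell filter, the scale, the thinning, the treatment of cells that met more than 1 rule, the marked doublets and the kind of cell by Xist and Y-linked UMIs. Some items are not reported here.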

Additional observations from a re-analysis of the deposited data

Results flagged for a closer look

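Tgfbr2 was on opposite sides of 1 in different cell classes, with an mgR to WT ratio of 0.758 (0.674–0.854) in fibroblasts and 1.34 (1.15–1.56) in macrophages. The difference between the classes was not tested.

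Ltbp2 in fibroblasts was on opposite sides of 1 by kind of cell, with a ratio of 3.98 (2.14–8.38) in Xist-only cells and 0.479 (0.342–0.669) in Y-only cells. This difference was not tested either, and it rests on 10 UMIs in the WT Xist-only cells.

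Barcodes left out by the cell filter, 229 in WT and 364 in mgR, also held UMIs of these genes. Listed first are the genes with at least 20 mgR UMIs and a higher level in mgR beyond counting error. For Tgfb1 the level was 57.9 CPM in mgR against 11.2 CPM in WT, for Tgfb2 23.4 against 7.46 CPM, and for Tgfbr1 23.4 against 8.70 CPM. Ltbp1 was at 24.1 against 1.24 CPM and Ltbp2 at 18.9 against 1.24 CPM, each with 1 UMI in WT. Of the 36 mgR Tgfb2 UMIs, 24 came from 1 barcode. The remaining genes did not meet this rule, and Ltbp3 was level at 16.3 against 16.2 CPM. The part of damaged cells and of barcodes with more than 5000 genes in these values was not tested.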

How the results depend on the processing

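With 1 library per genotype, differences between animals cannot be told apart from those between genotypes, and the 29 WT endothelial cells limit that class most. No paired analysis was possible because each genotype had 1 library. The 2 fibroblast genes past 1.5-fold became 1 with doubled cutoffs, with no cell filter, with the mean of per-cell CPM and with thinned cells, 0 on the median-gene scale and 6 in Y-only cells. The 5 macrophage genes became 1 with thinned cells, with either kind of cell alone and with a minimum of 100 UMIs. The 3 endothelial genes became 0 when cells that met more than 1 rule were kept and 5 in Xist-only cells, of which WT endothelium held 9. Shares of all genes past the fold under these alternatives are not given here, so these counts cannot be set against them. The log2 ratio of Tgfbr1 in endothelium, 1.47, was -0.20 with doubled cutoffs and -0.013 in Y-only cells. The log2 ratio of Tgfbr3 in WT fibroblasts to endothelium, 0.87, was -0.15 in Y-only cells. That of Ltbp2 in mgR endothelium to fibroblasts, also 0.87, was -0.076 with lower cutoffs and -0.070 with cells that met more than 1 rule. The causes were not tested. Ltbp4 in fibroblasts (-0.64 to -0.49) and Tgfbr1 (-0.88 to -0.72), Tgfbr2 (0.22 to 0.48) and Tgfb1 (-0.36 to -0.14) in macrophages kept their sign under all alternatives run.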
